A study of Mus musculus with 7 samples.

Results

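The 39 genes described here encode cyclins, cyclin-dependent kinases (CDKs) and other proteins that carry a cell from G1 through DNA synthesis into mitosis. They were chosen by gene symbol. An array probe set with that single symbol was found for 35 of the 39, among 16819 genes on the array, and Pcna, Ccnb1, Cdc25c and Bub1 were not analysed here. By role, 6 act in G1, 7 at the entry into S phase, 9 in DNA replication and nucleotide synthesis, and 13 in G2 and mitosis. All signals came from whole liver of male mice, each carrying Dicer1 fl/fl (both Dicer1 alleles floxed), whose strain background mixed C57BL/6 with 129S4. Animals of 8 to 10 weeks were given AAV8-Ttr-Cre, a viral vector that makes Cre recombinase under the transthyretin promoter. In liver this promoter works in hepatocytes, so whole liver also holds RNA of cells in which Cre is not expected. Livers were taken after a fast of 4 hours. There were 3 control arrays (0 weeks), 2 arrays at 2 weeks and 2 at 4 weeks after the vector, 1 array per biological replicate. All 7 arrays carried the floxed alleles, and none came from a mouse given a vector without Cre, so effects of vector, Cre, elapsed time and Dicer1 loss cannot be told apart.

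In an adult liver most hepatocytes rest outside the cell cycle and can re-enter it after injury or loss of tissue. D-type cyclins, with CDK4 or CDK6, phosphorylate the retinoblastoma protein and so release E2F transcription factors, which switch on the genes of DNA synthesis. Genes of G2 and mitosis are switched on later, by the MuvB complex with B-Myb and FoxM1, and their mRNAs are scarce in resting tissue. Dicer1 encodes the enzyme that cuts microRNA precursors, and D-type cyclins, CDK6 and Myc are among the best known microRNA targets.

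The arrays had nearly equal median log2 signals, from 7.07 to 7.09. Dicer1 read 8.58 to 8.73 on the control arrays and 7.79 to 8.05 on the 4 arrays after Cre. Markers of hepatocytes were the brightest of the cell type lists, at a mean log2 signal of 13.54 to 13.58 in controls (9 markers of 10 measured), 13.78 at 2 weeks and 13.76 to 13.79 at 4 weeks. That mean moved mostly with 1 marker, fibrinogen alpha (Fga), at 1.59 at 4 weeks (adjusted p = 0.00486), while the median difference of the list was -0.006 at 2 weeks and 0.029 at 4 weeks. Of the 9, 1 was called higher at 2 weeks and 2 at 4 weeks, the other being transferrin (Trf, 0.21, adjusted p = 0.0426), with 0 lower by limma and 0 lower at an unadjusted p under 0.05. The lists for macrophages (8 of 8 markers measured), lymphocytes (7 of 9), neutrophils (5 of 6), endothelial cells (7 of 7) and erythroid cells (3 of 6) had 0 members called by limma in any comparison with control, against 0, 1, 1, 0 and 0 higher and 0 lower at an unadjusted p under 0.05 at 4 weeks. Of the bile duct markers (4 of 6), 1 was called at 4 weeks, Sox9 (0.43, adjusted p = 0.0401), and the list's mean was 6.68 to 6.77 in controls, 6.74 to 6.95 at 2 weeks and 6.82 to 6.92 at 4 weeks. The stellate cell list (8 of 8) had all 8 members above the control mean at both times, beside 8076 and 8840 of all 16819 genes. By limma 0 were called at either time. At an unadjusted p under 0.05, 4 and 1 were higher, beside 1988 and 2173 of all genes. For both times together limma called 1 (Pdgfrb, 0.31, adjusted p = 0.0238). The list's mean was 7.88 to 7.98 in controls, 8.13 to 8.31 at 2 weeks and 8.06 to 8.10 at 4 weeks. Of all genes, 5.93% were called at 2 weeks, 9.77% at 4 weeks and 12.9% for both times together. No marker is at 0 on this scale. The part of these lists in the results below was not tested. In bulk tissue a lower share of cells of a type and less RNA per cell cannot be told apart.

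Among the 35 genes, cyclin D1 (Ccnd1) was called higher at 4 weeks, and the large ribonucleotide reductase subunit (Rrm1) at both times. The genes of mitosis had 0 of 13 members past the threshold at either time. Their 4 week log2 differences ran from 0 to 0.46, beside 0.36 for Rrm1, so a missing call does not mean a smaller difference. A difference was called at an adjusted p under 0.05 (limma, Benjamini-Hochberg over all 16819 genes). At 2 weeks 1 of 35 was called, against 5.93% of all genes. At 4 weeks 2 of 35 were called, against 9.77% of all genes, and 2 of 35 for the mean of both times against control, where all genes gave 12.9%. No member was called lower in these comparisons by limma, where 2.47%, 4.62% and 6.12% of all genes were. Each of these shares of members called is below that of all genes. At an unadjusted p under 0.05, 5, 2 and 3 members were lower, beside 1874, 1996 and 2213 of all 16819 genes. The median log2 difference of the 35 genes was 0.026 at 2 weeks and 0.092 at 4 weeks, beside -0.002 and 0.008 for all genes.

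**Figure D1:**
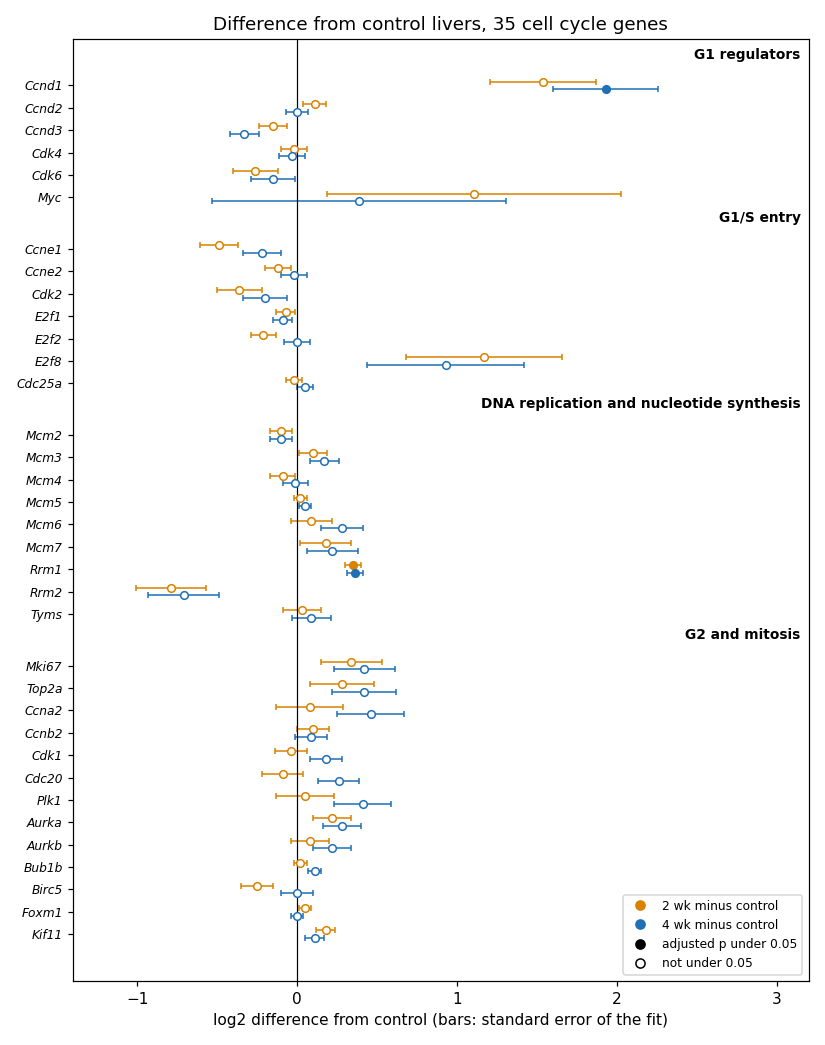
Log2 difference from the control mean (x axis) for the 35 genes (y axis, grouped by role), at 2 weeks (orange) and 4 weeks (blue), with the standard error of the fit as bars; filled points have an adjusted p under 0.05. Filled points are those of Rrm1 at both times and Ccnd1 at 4 weeks, and the mitotic genes lie between -0.25 and 0.46.

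Of the G1 regulators, Ccnd1 stood out. The gene encodes the regulatory subunit that activates CDK4 and CDK6 in response to growth signals. Its control arrays read 8.71, 8.60 and 8.50 (log2 signal), the 2 week arrays 9.64 and 10.66, and the 4 week arrays 10.23 and 10.84. Every array after Cre lay above every control array, and replicate 2 was the higher array at both times. The rise at 4 weeks was 3.80-fold (log2 difference 1.93, SE 0.33, adjusted p = 0.0263, limma, n = 3 and 2). At 2 weeks the log2 difference was 1.54 (SE 0.33, adjusted p = 0.0561), short of the threshold, with a 95% interval of 0.73 to 2.36. For both times together it was 1.74 (SE 0.28, adjusted p = 0.0175, n = 3 and 4), a 3.33-fold rise. Time points did not differ beyond their spread: 4 weeks minus 2 weeks was 0.38 (adjusted p = 0.834), with a 95% interval of -0.51 to 1.28, and it was -0.13 without 2 week replicate 1. The 4 week call was lost without control replicate 1, 2 or 3 (adjusted p = 0.0808, 0.0932 and 0.0984) and without 4 week replicate 1 or 2 (0.0881 and 0.139), at log2 differences of 1.62 to 2.23. The call for both times was lost without the same 5 arrays (0.0656, 0.0771, 0.083, 0.0502 and 0.068). At 2 weeks, leaving out 2 week replicate 1 gave 2.05 (adjusted p = 0.0216) and leaving out replicate 2 gave 1.03 (adjusted p = 0.132). A fit that leaves 1 array in a group assumes that this array varies like those of the other groups, so such a p carries no spread of its own group.

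The other D-type cyclins did not follow Ccnd1. Cyclin D2 (Ccnd2) read 8.97, 8.91 and 8.99 in controls, 8.97 and 9.17 at 2 weeks, and 8.97 and 8.95 at 4 weeks. Its groups overlapped, and the 95% interval of the 4 week difference was -0.17 to 0.17. Cyclin D3 (Ccnd3) read 7.81, 7.76 and 7.63 in controls, 7.48 and 7.69 at 2 weeks, and 7.36 and 7.43 at 4 weeks. Both 4 week arrays were below all controls, at a log2 difference of -0.33 (SE 0.09, adjusted p = 0.07), which passed after median centring or quantile normalization of the arrays. The differences of Ccnd1 and those of Ccnd2 and Ccnd3 were not tested against each other.

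The kinase partners of these cyclins showed no called difference. Cdk4 read 10.23, 10.33 and 10.13 in controls, 10.15 and 10.28 at 2 weeks, and 10.26 and 10.14 at 4 weeks, so the groups overlapped. The 95% interval of its 4 week difference ran from -0.22 to 0.17. Cdk6 differed by -0.26 at 2 weeks (SE 0.14, adjusted p = 0.342) and by -0.15 at 4 weeks (adjusted p = 0.571).

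Myc, the transcription factor that drives growth and raises cyclin and CDK gene expression, varied more between its 4 week replicates than between groups. It read 8.03, 7.28 and 8.09 in controls, 8.65 and 9.16 at 2 weeks, and 6.58 and 9.79 at 4 weeks. Both 2 week arrays were above all controls, while the 4 week arrays held both the lowest and the highest value of the series, 3.21 log2 units apart. The controls spanned 0.82 and the 2 week arrays 0.51, and the SE of the fit pools the groups. The log2 difference was 1.11 at 2 weeks (SE 0.92, adjusted p = 0.528) and 0.39 at 4 weeks (SE 0.92, adjusted p = 0.852). Without 4 week replicate 2 the latter was -1.22 (adjusted p = 0.211), and without 4 week replicate 1 it was 1.99 (adjusted p = 0.103).

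**Figure D2:**
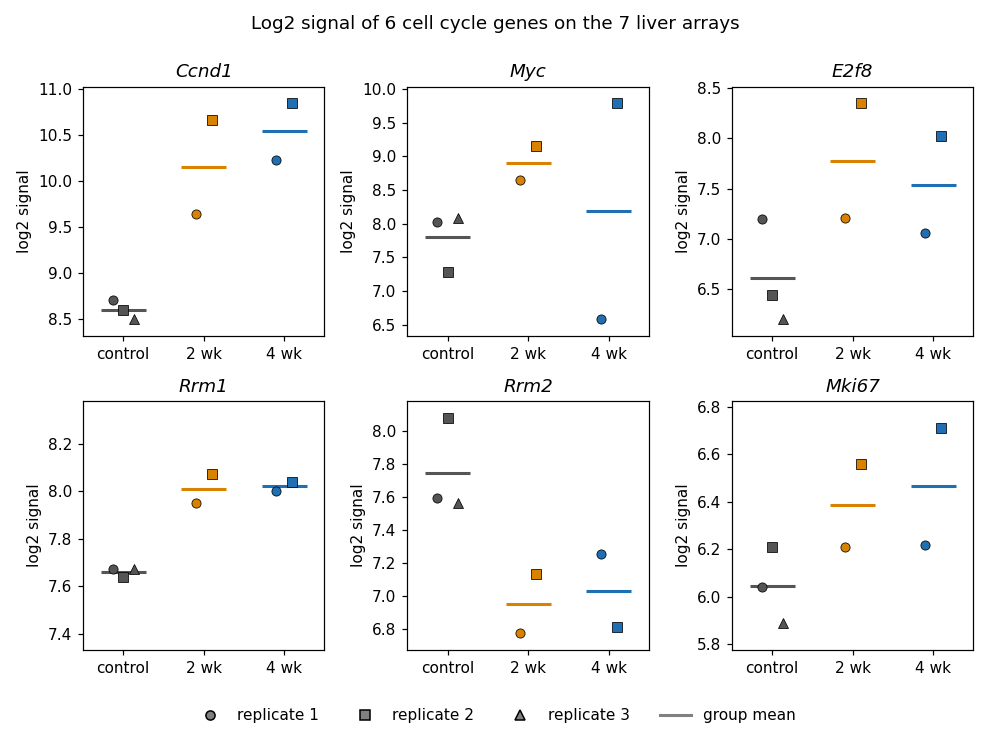
Log2 signal (y axis, own scale per panel) of Ccnd1, Myc, E2f8, Rrm1, Rrm2 and Mki67 on each of the 7 arrays, by group (x axis), with 1 point per array, its shape giving the replicate, and a line at the group mean. Ccnd1 and Rrm1 lie above all controls on the 4 arrays after Cre and Rrm2 below them, while Myc at 4 weeks spans 6.58 to 9.79.

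At the entry into S phase, 0 of 7 genes were called by limma at 2 weeks or 4 weeks, against 5.93% and 9.77% of all genes. At an unadjusted p under 0.05, 0 were higher and 3 lower at 2 weeks, beside 1988 and 1874 of all 16819 genes. At 4 weeks both counts were 0, beside 2173 and 1996 of all genes. Of these 7 genes, 6 were below the control mean at 2 weeks (8716 of all 16819 genes), with a median log2 difference of -0.117. At 4 weeks the median was -0.016. All arrays lay below all controls for 3 of 7 at 2 weeks (17.5% of all genes), 2 of 7 at 4 weeks (18.2%) and 2 of 7 over both times (12.2%). Cyclin E1 (Ccne1), the partner of CDK2 at the start of DNA synthesis, read 7.27, 6.99 and 7.08 in controls, 6.48 and 6.77 at 2 weeks, and 6.90 on both 4 week arrays. All 4 arrays after Cre were below the controls, at -0.49 (SE 0.12, adjusted p = 0.0709) at 2 weeks and -0.22 (adjusted p = 0.333) at 4 weeks. Ccne1 is described because of these values. Cdk2 itself read 7.96, 7.75 and 7.83 in controls, 7.70 and 7.27 at 2 weeks, and 7.58 and 7.70 at 4 weeks. These arrays too were all below the controls, at -0.36 (SE 0.14, adjusted p = 0.194) and -0.20 (adjusted p = 0.436). Without 2 week replicate 1 the 2 week difference of Cdk2 was -0.58 (adjusted p = 0.0372), with 1 array left at that time and its spread taken from the other groups.

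E2f8 encodes an atypical E2F repressor that is itself an E2F target and is linked to polyploidy of hepatocytes. It read 7.20, 6.44 and 6.20 in controls, 7.21 and 8.35 at 2 weeks, and 7.06 and 8.02 at 4 weeks. Replicate 2 was the highest at each time, and the other 4 week array lay within the control range. The log2 difference was 1.17 at 2 weeks (SE 0.49, adjusted p = 0.237) and 0.93 at 4 weeks (SE 0.49, adjusted p = 0.327). Leaving out 2 week replicate 2 took the former to 0.60, and leaving out 4 week replicate 2 took the latter to 0.44. The activator genes E2f1 and E2f2, the cyclin gene Ccne2 and the phosphatase gene Cdc25a differed by -0.21 to 0.05 from control at both times.

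Among genes of DNA replication and nucleotide synthesis, the subunits of ribonucleotide reductase, the enzyme that makes deoxyribonucleotides, lay on opposite sides of control. Rrm1, the large subunit, read 7.67, 7.64 and 7.67 in controls, 7.95 and 8.07 at 2 weeks, and 8.00 and 8.04 at 4 weeks. All arrays after Cre were above all controls. Rrm1 rose 1.28-fold at 2 weeks (log2 difference 0.35, SE 0.05, adjusted p = 0.025, limma, n = 3 and 2) and 1.28-fold at 4 weeks (0.36, SE 0.05, adjusted p = 0.018). The call at 2 weeks was lost without control replicate 1, 2 or 3 (adjusted p = 0.0777, 0.0923 and 0.092), without 2 week replicate 2 (0.0549) and without 4 week replicate 1 or 2 (0.0584 for each). At 4 weeks it was lost without control replicate 1, 2 or 3 (0.0589, 0.0677 and 0.0663) and without 4 week replicate 1 or 2 (0.081 and 0.0907). The mean of both times, at 0.36 (SE 0.04, adjusted p = 0.00884), kept an adjusted p of 0.0478 or lower when any 1 array was left out.

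Rrm2, the small subunit, whose mRNA is most abundant in S phase, read 7.59, 8.08 and 7.56 in controls, 6.77 and 7.13 at 2 weeks, and 7.25 and 6.81 at 4 weeks. All arrays after Cre were below all controls. The log2 difference was -0.79 at 2 weeks (SE 0.22, adjusted p = 0.105) and -0.71 at 4 weeks (SE 0.22, adjusted p = 0.115). For both times together it was -0.75 (SE 0.19, adjusted p = 0.0558, n = 3 and 4), with a 95% interval of -1.21 to -0.29. This p fell to 0.0417 after quantile normalization and 0.04 after median centring, and leaving out single arrays gave 0.0888 to 0.153.

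The minichromosome maintenance genes Mcm2 to Mcm7 encode the replicative helicase that unwinds DNA at replication forks. Their log2 differences were between -0.10 and 0.18 at 2 weeks and between -0.10 and 0.28 at 4 weeks, with none called by limma or under 0.05 unadjusted. Mcm7 read 7.74, 7.20 and 7.39 in controls, 7.59 and 7.66 at 2 weeks, and 7.63 and 7.71 at 4 weeks, with overlap throughout. Mcm6 read 7.25, 7.26 and 7.10 in controls, 7.09 and 7.49 at 2 weeks, and 7.39 and 7.58 at 4 weeks. Only at 4 weeks were both of its arrays above the controls, at 0.28 (SE 0.13, adjusted p = 0.278). Thymidylate synthase (Tyms), which makes dTMP, differed by 0.03 and 0.09. The median of all 9 genes was 0.026 at 2 weeks and 0.092 at 4 weeks.

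None of the 13 measured genes of G2 and mitosis was called at either time by limma, where 5.93% and 9.77% of all genes were. At an unadjusted p under 0.05, 1 was higher and 1 lower at 2 weeks, then 1 and 0 at 4 weeks. Among all 16819 genes these were 1988 and 1874, then 2173 and 1996. The median log2 difference of the 13 genes was 0.078 at 2 weeks and 0.220 at 4 weeks. At 4 weeks, 9 of 13 had both arrays above all controls, against 21.6% of all genes. On 4 week replicate 1 the margin was small for some of them. Cdk1 read 6.39 there, equal to its highest control at the digits shown, and Mki67 read 6.22 against 6.21. Others lay further off, such as Ccna2 at 5.91 against 5.80. At 2 weeks this was 3 of 13, against 17.3%. Over the 4 arrays after Cre it was 3 of 13, against 12.9%.

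The proliferation marker Mki67, which coats mitotic chromosomes, read 6.04, 6.21 and 5.89 in controls, 6.21 and 6.56 at 2 weeks, and 6.22 and 6.71 at 4 weeks. Its replicate 1 arrays were close to the highest control. The log2 difference was 0.34 at 2 weeks (SE 0.19, adjusted p = 0.352) and 0.42 at 4 weeks (SE 0.19, adjusted p = 0.242). Top2a, the topoisomerase that untangles chromosomes, read 5.86, 5.86 and 5.71 in controls, 5.92 and 6.25 at 2 weeks, and 5.92 and 6.54 at 4 weeks. All 4 arrays were above the controls, at 0.28 (SE 0.20, adjusted p = 0.465) and 0.42 (SE 0.20, adjusted p = 0.27). Cyclin A2 (Ccna2), the CDK partner from S phase into mitosis, read 5.80, 5.35 and 5.80 in controls, 5.53 and 5.91 at 2 weeks, and 5.91 and 6.31 at 4 weeks. Its 4 week difference of 0.46 (SE 0.21, adjusted p = 0.249) was the highest of the 13. These genes were picked for description after their values were seen.

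Among the kinase genes of mitosis, none was called. Cdk1, the kinase that starts mitosis, read 6.39, 6.39 and 6.29 in controls, 6.24 and 6.39 at 2 weeks, and 6.39 and 6.68 at 4 weeks. Its differences were -0.04 (SE 0.10, adjusted p = 0.844) and 0.18 (SE 0.10, adjusted p = 0.349). Aurora A (Aurka), a spindle pole kinase, read 6.44, 6.78 and 6.70 in controls, 6.92 and 6.79 at 2 weeks, and 6.82 and 7.01 at 4 weeks. All 4 arrays were above the controls, at 0.22 (SE 0.12, adjusted p = 0.353) and 0.28 (SE 0.12, adjusted p = 0.235). Survivin (Birc5), a subunit of the Aurora B complex, read 6.62, 6.46 and 6.41 in controls, 6.15 and 6.34 at 2 weeks, and 6.57 and 6.41 at 4 weeks. Both 2 week arrays lay below the controls, at -0.25 (SE 0.10, adjusted p = 0.205). The polo-like kinase gene Plk1 was at 0.05 and 0.41, the anaphase activator Cdc20 at -0.09 and 0.26, and the spindle motor gene Kif11 at 0.18 and 0.11. Aurkb, Bub1b, Ccnb2 and Foxm1 differed by 0.00 to 0.22. The intervals of the 13 genes bound what these arrays could show: at 2 weeks the 95% limits reached from -0.49 (Birc5) to 0.81 (Mki67), at 4 weeks from -0.24 (Birc5) to 0.98 (Ccna2), and for both times together from -0.33 to 0.77.

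The size of the mitotic differences at 4 weeks depended on 1 array. Of the 13 genes, 9 had their highest value on 4 week replicate 2, which was the highest array for 14.8% of all genes. The median difference of the 13 from their control mean was 0.081 and 0.089 on the 2 week arrays and 0.107 and 0.366 on the 4 week arrays. Without 4 week replicate 2 the 4 week median was 0.11, with rounded values from 0 to 0.28. In that fit 13 of 13 genes were above the control mean (51.1% of all genes). Without 4 week replicate 1 the median was 0.37, with 12 of 13 above. Each of these fits leaves 1 array at 4 weeks, so the counts of genes do not replicate the direction. Replicate 1 had 9 of the 13 genes above the highest control and replicate 2 had 11. Ccnd1, Myc, Mki67 and Top2a all had their highest value on this array, and E2f8 had its second highest. Over all 35 genes, replicate 2 was above replicate 1 for 24 at 2 weeks and 23 at 4 weeks, where the shares of all genes were 42.6% and 44.6%. Equal values count here as not above, which lowers these shares: 58.4% of all genes and 60% of the 35 had 2 or more equal arrays. The replicate 2 arrays also had the higher mean of the macrophage markers (8.66 against 8.31 at 2 weeks and 8.63 against 8.25 at 4 weeks, where controls spanned 8.29 to 8.55) and of the endothelial markers (8.93 against 8.49 and 8.82 against 8.72, controls 8.61 to 8.74). The part of these in the pattern was not tested. The replicate numbers of different groups are labels, and nothing in the labels ties them to a shared animal or day.

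**Figure D3:**
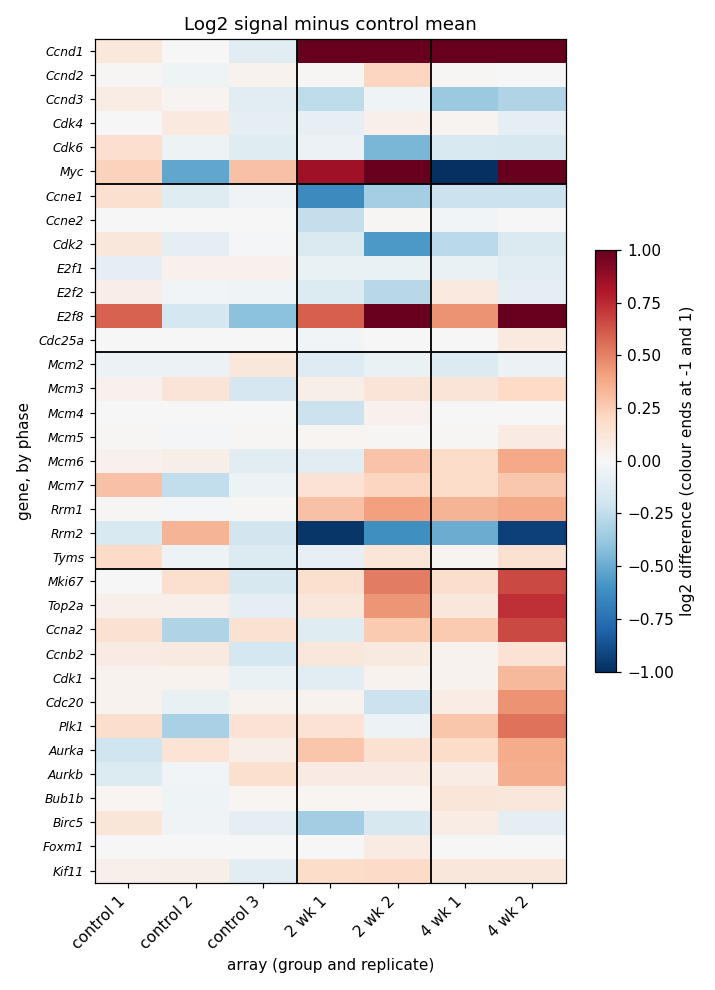
Log2 signal minus the control mean for the 35 genes (rows, by role) on the 7 arrays (columns, by group and replicate); red is above and blue below control, and the colour ends at -1 and 1. Ccnd1 is red on the 4 arrays after Cre, Rrm2 is blue on the same arrays, and the mitotic genes in the lowest block are reddest on 4 week replicate 2.

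The pattern by role can be read from the medians, which carry no test because the genes were chosen with results known. At 4 weeks the medians were -0.013 for the 6 G1 regulators, -0.016 for the 7 genes of S phase entry, 0.092 for the 9 replication genes and 0.220 for the 13 mitotic genes. The G1 median does not show Ccnd1, which lay far above the other 5 at 1.93. Differences of 0.5 log2 units or more from control were found at 4 weeks for Ccnd1 and E2f8 (higher) and Rrm2 (lower), and at 2 weeks for these 3 and Myc. Among all genes, 4.58% were higher and 4.36% lower by that much at 4 weeks, and 4.36% and 3.65% at 2 weeks. The comparison of 4 weeks with 2 weeks gave 0 of 35 calls by limma, against 0.00595% of all genes. At an unadjusted p under 0.05 this comparison gave 0 of 35 in each direction, beside 707 higher and 543 lower of all 16819 genes. Its log2 differences ran from -0.72 (Myc) to 0.39 (Ccna2).

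The promoter windows of the RefSeq table (build GRCm38.p6), which run from 250 bases before to 50 after a gene's start, were read for the letters bound by the regulators of these genes. Of the 35 genes, 27 had a window there, 30 windows in all, as some genes had more than 1. Ccnd1, Ccnd2 and Myc had none, so the windows of G1 regulators are those of Cdk4, Cdk6 and Ccnd3 only. Motifs were searched on both strands: E2F sites as TTTGGCGC, TTTCGCGC or TTCCCGCC, the cell cycle homology region (CHR) bound by MuvB as TTTGAA or TTCGAA, and the NF-Y site as CCAAT. Matches of different motifs overlapped in 1 of the 30 windows and in none of those printed. CHR letters were in 9 of 10 windows of G2 and mitosis genes, 2 of 9 of replication genes and 0 of 4 of G1 regulators, against 19.2% of all 32851 windows. E2F letters were in 5 of 9 replication windows and 1 of 10 mitotic ones, against 2.96% of all. CCAAT was in 8 of 9, 9 of 10 and 1 of 4 windows of replication, mitotic and G1 genes, against 37.4% of all. In the 7 windows of S phase entry genes, E2F letters were in 2, CHR letters in 2 and CCAAT in 5. The letters of the AP-1 site, TGANTCA, were in 0 of the 30 and in 7.81% of all windows. Those of the E-box, CACGTG, were in 2 of 4 G1 windows, 1 of 9 replication windows and 0 of 10 mitotic ones, against 7.15% of all. The 4 windows below belong to the reductase pair with opposite differences, to the variable E2f8 and to the mitotic kinase gene Cdk1, the 1 mitotic window of 10 with E2F letters. Capitals mark E2F, CHR and CCAAT letters on either strand.
Rrm1 (chr7:102441445-102441744, plus strand): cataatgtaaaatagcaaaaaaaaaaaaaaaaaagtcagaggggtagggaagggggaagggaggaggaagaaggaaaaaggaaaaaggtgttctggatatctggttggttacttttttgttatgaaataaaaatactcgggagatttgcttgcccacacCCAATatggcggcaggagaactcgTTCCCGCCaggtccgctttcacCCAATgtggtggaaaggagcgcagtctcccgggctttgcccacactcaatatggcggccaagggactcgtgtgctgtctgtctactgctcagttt
Rrm2 (chr12:24708004-24708303, plus strand): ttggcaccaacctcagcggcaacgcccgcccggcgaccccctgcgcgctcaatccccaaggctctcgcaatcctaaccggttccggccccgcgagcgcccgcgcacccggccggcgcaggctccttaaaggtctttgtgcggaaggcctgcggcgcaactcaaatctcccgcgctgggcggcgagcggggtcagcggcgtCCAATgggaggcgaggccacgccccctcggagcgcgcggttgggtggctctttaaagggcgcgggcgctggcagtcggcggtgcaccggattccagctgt
E2f8 (chr7:48881547-48881846, minus strand): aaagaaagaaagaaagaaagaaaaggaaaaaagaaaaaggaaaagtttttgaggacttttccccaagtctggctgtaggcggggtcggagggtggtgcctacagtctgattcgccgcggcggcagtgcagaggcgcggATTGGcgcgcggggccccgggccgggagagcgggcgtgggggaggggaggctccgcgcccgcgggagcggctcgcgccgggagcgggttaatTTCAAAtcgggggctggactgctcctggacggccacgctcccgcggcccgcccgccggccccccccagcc
Cdk1 (chr10:69352863-69353162, minus strand): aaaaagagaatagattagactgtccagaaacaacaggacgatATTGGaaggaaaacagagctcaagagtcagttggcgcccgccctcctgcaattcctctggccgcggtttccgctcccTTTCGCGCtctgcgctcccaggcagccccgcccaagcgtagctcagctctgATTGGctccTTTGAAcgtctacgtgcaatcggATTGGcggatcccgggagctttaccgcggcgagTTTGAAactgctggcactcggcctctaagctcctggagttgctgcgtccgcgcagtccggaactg
Rrm1, which rose, held 1 E2F match and 2 CCAAT matches, while Rrm2 held 1 CCAAT match. E2f8 held 1 CHR and 1 CCAAT match. Cdk1 held 1 E2F, 2 CHR and 3 CCAAT matches. A match is a run of letters, and no binding was measured here.

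Other cell cycle genes, in lists that hold none of the 39, were compared in the same fit. Among restraints and checkpoints (15 of 16 measured), 3 were called higher and 1 lower at 2 weeks, and 4 and 1 at 4 weeks, against 3.46% and 2.47%, then 5.15% and 4.62%, of all genes. Wee1, the kinase that holds CDK1 inactive before mitosis, fell from 9.64, 9.74 and 9.75 to 6.81 and 6.82 at 2 weeks and 6.97 and 6.91 at 4 weeks. This was the largest difference of the list, at -2.77 at 4 weeks (SE 0.05, adjusted p = 0.000109). Wee1 is also a well known output gene of the circadian clock, and no source used here gives the time of day at collection. The antiproliferative gene Btg2 read 6.88, 6.97 and 6.69 in controls, then 8.39 and 8.99, and then 8.44 and 7.88, a 2.49-fold rise at 4 weeks (adjusted p = 0.0297). Its relative Btg1 read 10.40, 10.30 and 10.57, then 11.31 and 11.70, then 11.59 and 11.36, a 2.08-fold rise at 4 weeks (adjusted p = 0.0178). Cyclin G1 (Ccng1), a p53 target, rose 1.83-fold at 4 weeks (adjusted p = 0.0233). The stress gene Gadd45g was at 0.19 and the anaphase-promoting complex activator Fzr1 at 0.01 at 4 weeks, both short of the threshold. The 4 week call of Wee1 held without each single array (limma), while those of Btg2, Btg1 and Ccng1 were lost without control replicate 1, 2 or 3 and without 4 week replicate 1 or 2, at adjusted p of 0.0577 (Btg1) to 0.135 (Btg2).

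Of CDK inhibitors and the retinoblastoma family (9 of 10 measured), 1 was called higher and 0 lower at each time by limma, with 3 and 0 at an unadjusted p under 0.05. Among all genes 3.46% were called higher at 2 weeks and 5.15% at 4 weeks. Rb1, the retinoblastoma gene itself, read 7.49, 7.59 and 7.44 in controls, 8.13 and 7.93 at 2 weeks, and 7.89 and 8.07 at 4 weeks. Rb1 rose 1.44-fold at 2 weeks (SE 0.09 on the log2 scale, adjusted p = 0.0359) and 1.39-fold at 4 weeks (adjusted p = 0.0335). Leaving out any 1 of the 7 arrays ended the 2 week call (adjusted p = 0.0687 to 0.123), and without a control or a 4 week array the 4 week call was lost (0.0769 to 0.157). Its relative Rbl2 was at 0.46 (adjusted p = 0.0887) and the inhibitor p27 (Cdkn1b) at 0.24 (adjusted p = 0.133) at 4 weeks. Cdkn1a, which encodes p21, was not analysed here.

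**Figure D4:**
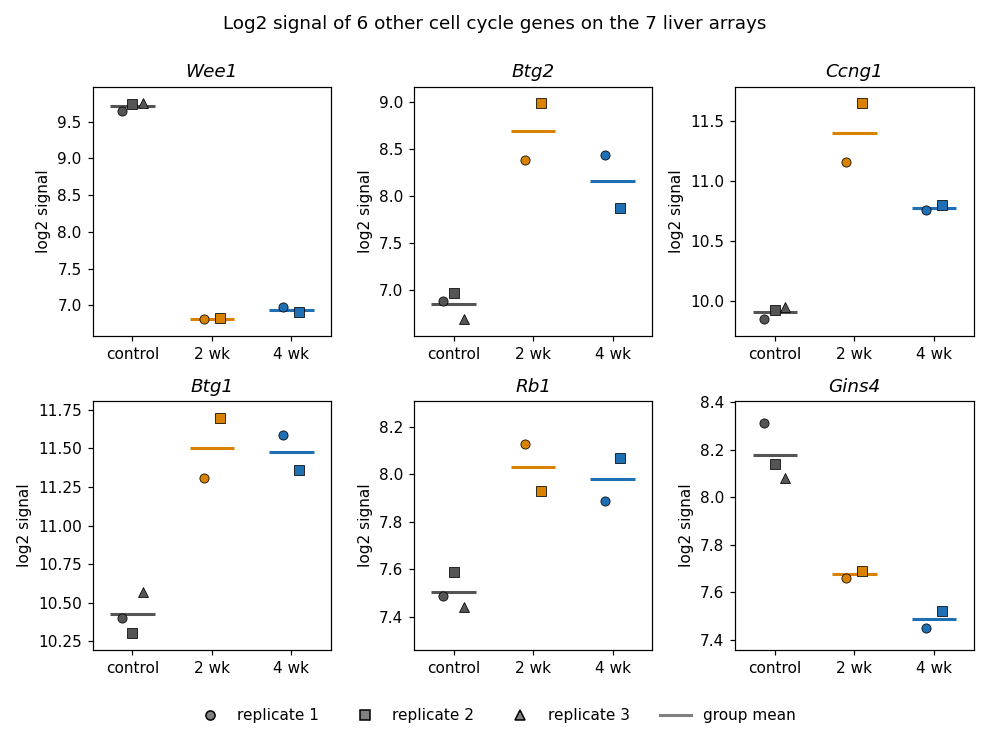
Log2 signal (y axis, own scale per panel) of the restraint genes Wee1, Btg2, Ccng1, Btg1 and Rb1 and the replication gene Gins4 on each of the 7 arrays, by group (x axis), with 1 point per array and a line at the group mean. Wee1 and Gins4 lie below all controls on the 4 arrays after Cre, and the other genes above them.

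Among other replication genes (34 of 37 measured), 0 were called higher and 1 lower at 2 weeks, and 1 and 1 at 4 weeks. These are 2.94% and 5.88% of the list, below the 5.93% and 9.77% of all genes. Gins4, a subunit of the GINS complex of the replicative helicase, read 8.31, 8.14 and 8.08 in controls, 7.66 and 7.69 at 2 weeks, and 7.45 and 7.52 at 4 weeks. Its fall on the log2 scale was -0.50 after 2 weeks (SE 0.08, adjusted p = 0.027) and -0.69 after 4 (SE 0.08, adjusted p = 0.011), with the 2 week call lost whichever 1 array was left out (0.0501 to 0.0932) and the 4 week call without 4 week replicate 1 or 2 (0.0773 and 0.0678). The origin recognition gene Orc3 rose 1.56-fold at 4 weeks (adjusted p = 0.0196), a call lost without control replicate 1, 2 or 3 or 4 week replicate 1 or 2 (0.0554 to 0.111). Rfc5 was at 0.18 and Rpa1 at -0.10 at 4 weeks. Of the other mitosis genes (32 of 40 measured), 0 were called by limma at 2 weeks and 1 at 4 weeks (3.12%). Both are below the 5.93% and 9.77% of all genes. At an unadjusted p under 0.05, 1 was higher and 2 lower at 2 weeks, then 7 and 0 at 4 weeks. Among all 16819 genes these were 1988 and 1874, then 2173 and 1996. The called gene was the kinesin gene Kif20b (1.32-fold, adjusted p = 0.0188), whose call was lost without control replicate 2 or 3 or 4 week replicate 1 or 2 (0.0543 to 0.0946). Kif20b was among the dimmest 0.291% of all genes, at a mean log2 signal of 4.89. The median of the 32 genes at 4 weeks was 0.161, and 11 of 32 had both 4 week arrays above all controls, against 21.6% of all genes. Here too 4 week replicate 2 set the size, with a median of 0.218 above the control mean against 0.057 on replicate 1. Their mean signal was 6.02 to 6.04 in controls and 6.09 to 6.26 at 4 weeks. Spc24 was at -0.03 and securin (Pttg1) at -0.62 (adjusted p = 0.385).

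Of other cyclins, CDKs and E2F factors (33 of 35 measured), 1 was called higher and 0 lower at 2 weeks, and 1 and 2 at 4 weeks. These are 3.03% and 9.09% of the list, below the 5.93% and 9.77% of all genes. The cyclin L2 gene Ccnl2, which acts in splicing, rose at 2 weeks (0.45, adjusted p = 0.0257). At 4 weeks the Mediator kinase gene Cdk8 rose (0.42, adjusted p = 0.0282), and Cdk5 (-0.41, adjusted p = 0.0391) and the repressor gene E2f6 (-0.39, adjusted p = 0.0426) fell. Each of these calls was lost without control replicate 1, 2 or 3 and without 4 week replicate 1 or 2 for the 4 week calls (0.0591 to 0.169), and without any array but 2 week replicate 1 for Ccnl2 (0.0691 to 0.0971). Cdk5 and E2f6 also lost theirs without either 2 week array (0.0527 and 0.0714). Ccni was at 0.16 and Cdk18 at -0.21 at 4 weeks.

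The signals of many members were low. The mean log2 signal of the 13 mitotic genes ran from 5.70 to 6.78, all below the median of all genes (7.25), and 5 of them were among the dimmest 25%. No detection call comes with the values, so how far these signals stand above background is unknown. In addition, the deposited values repeat: in 8 of the 35 genes (22.9%), 3 or more arrays held the same value to 5 decimals, against 38.2% of all genes. Foxm1 had the same value on 5 arrays, and Ccne2, Cdc25a and Bub1b on 4.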

How the data were processed

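Per the labels' protocols, biotin-labelled target was made from total liver RNA with an Affymetrix kit and hybridised to 7 Gene ST arrays. The authors deposited log2 signals, 1 per probe set and array, with their scale read from the values. GCOS 1.4 is named in the submitters' processing notes, and the sources used here do not give the summarisation or normalization. Of 21093 probe sets, 17709 had 1 gene symbol, 187 several and 3197 none in the platform annotation. By gene number 17648 matched RefSeq (GRCm38.p6). For each of 16819 genes the probe set with the highest mean was kept, and each measured member had 1.

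The deposited values were fitted with 3 group means in limma 3.58.1 (R 4.3.3; 4 residual and 1.69 prior degrees of freedom), with no filter, two-sided tests and Benjamini-Hochberg adjustment. The steps were tested on simulated data. The members, the lists and the rule for named genes were chosen with earlier results of these data known. Under that rule Ccnd1, any called member and any member differing by 0.5 log2 units got values on every array, as did the brightest 2 uncalled members of each role. For arrays, their number (3, 2 and 2) limits the precision. Alternatives covered normalization, centring, dim genes, probe sets, the variance prior, single arrays, pairs of groups and the replicate number.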

Additional observations from a re-analysis of the deposited data

How the results depend on the processing

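The numbers of cell cycle genes called (35 measured; 1 higher at 2 weeks, 2 at 4 weeks and 2 for both times together, 0 lower) rested on few arrays. With single arrays left out, 0 to 2 were called higher and 0 to 1 lower at 2 weeks, 0 to 2 and 0 at 4 weeks, and 1 to 2 and 0 to 1 for both times. Quantile normalization, median centring, leaving out the dimmest 25% or 50% of genes, and robust eBayes each gave 2 higher at 2 weeks. The first 2 of these and leaving out the dimmer 50% gave 1 lower at 4 weeks. For both times, each gave 1 lower, except that 2 were lower without the dimmer 50%, which also gave 1 lower at 2 weeks. A fit of the compared groups alone gave 0 higher at 2 weeks, and a minimum difference of 0.5 left 0 higher at 2 weeks, 1 at 4 weeks and 1 for both. With the replicate number as a block, 0 members were called in any comparison, and over all genes 0 were higher at 2 weeks, 1 at 4 weeks and 2 for both times, with 2 residual degrees of freedom fewer. Deviations of same-numbered arrays from their group means correlated at -0.07 to 0.11. In a group of 2 arrays these deviations mirror each other, so the correlations cannot show whether the numbers pair the samples. Median differences by role moved as follows. Without the dimmer 50%, the replication genes were at 0.22 at 4 weeks (5 left) and S phase entry at -0.36 and -0.20 (Cdk2 alone). Leaving out single arrays gave -0.07 to 0.13 at 2 weeks and 0.03 to 0.19 at 4 weeks for replication, -0.10 to -0.02 at 4 weeks for S phase entry, and 0.11 to 0.37 at 4 weeks for mitosis. Some uncalled single-gene values changed sign when 1 array was left out. Myc spanned -1.22 to 1.99 at 4 weeks and -0.06 to 1.55 for both times, Ccnd1 at 4 against 2 weeks -0.13 to 0.89, Ccna2 at 2 weeks -0.11 to 0.27, and Cdk1 -0.12 to 0.03 at 2 weeks and 0.00 to 0.14 for both times. Over all genes, the 582 higher and 415 lower calls at 2 weeks became 171 and 105 in the fit of those groups alone and 957 and 763 without the dimmer 50%. Leaving out single arrays gave 24 to 1091 and 17 to 1077 there, 37 to 1001 and 26 to 947 at 4 weeks, and 333 to 1426 and 219 to 1362 for both times. The fit of compared groups alone was not run for both times together, where all groups enter. No group had 4 arrays, so single arrays were not tested as outliers. Fewer arrays also leave fewer residual degrees of freedom. The cause of these shifts was not tested.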
